A study of Homo sapiens with 372 samples.

Results

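The 8 genes described here encode the MHC class I antigen presentation machinery, and they were chosen by name: the heavy chains HLA-B, HLA-C and HLA-E, the light chain B2M, the peptide transporter subunits TAP1 and TAP2, the loading chaperone TAPBP (tapasin) and the peptide-trimming enzyme ERAP1. Of the 8 genes, 6 had a row in the table of 9664 genes, and TAP1 and TAP2 were not analysed here. The values came from single cells of A2780, an established human ovarian cancer line, in 6 conditions: untreated control, paclitaxel (5 nM) for 16 h and for 48 h, celecoxib (75 µM) for 2 h and for 16 h, and a combination of both drugs at those doses for 16 h. Paclitaxel stabilizes microtubules, and celecoxib inhibits cyclooxygenase. Of 372 listed cells, 338 were in the table, with 46 control cells, 56 and 53 cells after 16 h and 48 h of paclitaxel, 63 and 61 cells after 2 h and 16 h of celecoxib, and 59 cells after the combination. Cells were captured with the Fluidigm C1 system, all cells of a condition carry 1 code in their labels that no other condition has, and no culture was named as a replicate. Every condition therefore counted as 1 sample, no test between conditions was made, and the SD values given with the means are spreads over cells, which are not replicates. The labels do not say what that code stands for, and the condition and whatever the code marks cannot be told apart.

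Nearly every cell with a nucleus shows fragments of its own proteins on MHC class I molecules, where cytotoxic T cells read them. Proteasomes cut proteins into peptides, the TAP transporter carries the peptides into the endoplasmic reticulum, ERAP1 trims them, and tapasin holds an empty heavy chain paired with B2M until a peptide is bound. A heavy chain without B2M is in general not carried to the cell surface. Interferons raise transcription of most of these genes, and tumours often lower it.

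The promoters of the class I genes carry short elements that are known for this regulation, and the stretches that hold them are printed for 4 members as background to the levels. The search used RefSeq promoter windows on GRCh38.p14, from 250 bases before to 50 bases after the gene start that RefSeq gives, which can differ from the outer end of the gene spans given further on, which are from GENCODE. It looked on both strands for the core of the interferon-stimulated response element in 2 forms, a long form (GAAA, any 2 bases, GAAA) and a short form (GAA, any 2 bases, GAAA), for TGACG, the core of the X2 box, for the CCAAT box and for GGGANTNCC, a kappa B form. These letters were chosen with the promoter sequences in view. Of all 35116 promoters, 3.57% held the long interferon form, 7.66% the short form, 24.6% TGACG, 34.6% CCAAT and 4.35% GGGANTNCC. Of the 6 gene symbols, 5 matched a window, all but HLA-E. The stretches are given 5′ to 3′ on the strand of the gene, at chr6:31357221-31357365 (minus strand) for HLA-B, chr6:31272134-31272294 (minus strand) for HLA-C, chr15:44711363-44711482 (plus strand) for B2M and chr6:33314079-33314143 (minus strand) for TAPBP. Capitals mark the matches.
HLA-B promoter: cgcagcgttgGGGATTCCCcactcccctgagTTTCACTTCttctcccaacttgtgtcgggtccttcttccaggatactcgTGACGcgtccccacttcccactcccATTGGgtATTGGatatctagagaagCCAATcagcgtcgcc
HLA-C promoter: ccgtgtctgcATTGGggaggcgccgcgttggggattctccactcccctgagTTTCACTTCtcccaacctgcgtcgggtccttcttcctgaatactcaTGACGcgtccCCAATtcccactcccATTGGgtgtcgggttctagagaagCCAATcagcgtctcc
B2M promoter: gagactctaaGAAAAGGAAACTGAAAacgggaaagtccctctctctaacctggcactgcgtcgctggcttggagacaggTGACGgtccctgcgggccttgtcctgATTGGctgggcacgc
TAPBP promoter: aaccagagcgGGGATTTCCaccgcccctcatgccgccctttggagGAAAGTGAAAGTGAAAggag
HLA-B and HLA-C had a like arrangement, with the short interferon form on the minus strand at -155 and -151 and TGACG at -106 and -105, counted in bases from that RefSeq start. Both held CCAAT in either orientation between that X2 core and the start. HLA-C had 1 more CCAAT match on the minus strand at -192. The HLA-B stretch also held GGGATTCCC at -176, where the kappa B form matched on both strands. B2M held 2 overlapping matches of the long interferon form at -144 and -138, TGACG at -75 and CCAAT on the minus strand at -49. TAPBP held 2 overlapping matches of the long interferon form at -20 and -14 and a kappa B match at -55, with no TGACG or CCAAT in its window. In ERAP1, 1 window held the long form on the minus strand at position 3 and CCAAT at -154, and a second window held the short form on the minus strand at -180. A match describes the letters of these windows and was not tested as a binding site.

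The genes lie in several places of hg38. HLA-B (chr6:31353872-31367067, minus strand), HLA-C (chr6:31268749-31272130, minus strand), HLA-E (chr6:30489509-30494194, plus strand) and TAPBP (chr6:33299694-33314284, minus strand) lie on chromosome 6, B2M (chr15:44711358-44718851, plus strand) on chromosome 15 and ERAP1 (chr5:96760810-96808100, minus strand) on chromosome 5. The heavy chains are paralogues, and reads from stretches they share were divided among them by estimation. Of all 50-base stretches of the main transcript, 2.56% in HLA-B, 6.76% in HLA-C, 6.16% in HLA-E and 7.09% in TAPBP were identical in another gene, against 0 in B2M and ERAP1. The alleles of A2780 can also differ from the reference, and their part in the HLA-B, HLA-C and HLA-E values was not tested.

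Levels are E-values, log2(N/10 + 1), in which N stands for a TPM that had been normalized to a spike-in RNA of the cell. TPM is scaled by transcript length, so that levels of different genes can be set side by side, and an E-value of 0 means that the transcript was not detected. How many reads each cell had is unknown, and the median number of genes detected per cell lay between 6126 and 6630 in the 6 conditions. Because of the spike-in scaling, the sum of N over all genes in the median cell differed from the control by -0.99 and -0.64 on the log2 scale after 16 h and 48 h of paclitaxel, by -0.76 and -1.52 after 2 h and 16 h of celecoxib and by 0.49 after the combination. Each comparison of the members between whole conditions is therefore given as deposited and also after each cell was brought to the same total. Some values of other pathway genes and of parts of the cells are given as deposited only. Of 10 ovarian and epithelial markers, KRT18 was in the table and was detected in 23.9% to 36.5% of the cells of a condition, and the mesenchymal marker VIM in 62.5% to 86.8%. None of 7 leukocyte and MHC class II markers was in the table. Of 6 fibroblast and endothelial markers, COL1A2 was detected in 10.7% to 32.8% and LUM in 10.2% to 29.5% of the cells of a condition, and their part in the class I levels was not tested.

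B2M, the light chain that every class I heavy chain binds, was detected in each of the 338 cells. Its mean E-value was 7.83 ± 0.74 in control cells (SD, n = 46 cells), 7.20 ± 1.15 and 7.28 ± 0.92 after 16 h and 48 h of paclitaxel, 7.53 ± 0.97 and 7.02 ± 0.86 after 2 h and 16 h of celecoxib, and 9.00 ± 0.81 after the combination. The combination stood highest, and it was separated from the next condition, the control, by more than the SD of either group, while the other neighbours in this order differed by less than their SDs. Single cells still overlapped, since control cells ran from 6.11 to 9.64 with a median of 7.86 and combination cells from 7.50 to 11.65 with a median of 9.01. On the linear scale the mean N of B2M was 2575 in control cells, 1994, 1938, 2292 and 1541 with the single drugs in the order above, and 6085 with the combination. By mean E-value B2M ranked 91 of 9655 genes in control cells and 32 after 16 h of celecoxib, so that its E-value was lowest in the condition where its rank was highest. With equal totals the order changed, with means of 7.29 in the control, 7.47, 7.37, 7.56 and 7.88 with the single drugs, and 7.76 with the combination. The control was then lowest and celecoxib 16 h highest.

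HLA-C, a classical heavy chain that also serves as a ligand of inhibitory receptors on natural killer cells, was the highest of the 3 heavy chains in all 6 conditions. Its mean E-value was 2.94 ± 1.5 in the control, 2.10 ± 1.31 and 2.97 ± 1.26 after 16 h and 48 h of paclitaxel, 2.78 ± 1.29 and 2.26 ± 1.32 after 2 h and 16 h of celecoxib, and 3.78 ± 1.78 after the combination. The transcript was detected in 89.1% of control cells (exact 95% interval 76.4% to 96.4%) and in 85.2% to 93.7% of the cells of the other conditions. These intervals and those below cover counting error only. The ranges over cells overlapped, from 0 to 5.45 in the control and from 0 to 7.18 with the combination. HLA-C stood above 75.3% of all genes in control cells, 75.1% and 82.4% after 16 h and 48 h of paclitaxel, 80.6% and 80.1% after 2 h and 16 h of celecoxib, and 78.4% after the combination.

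HLA-B, a classical heavy chain that presents peptides to cytotoxic T cells, was not detected in a large share of cells. Its mean E-value was 1.32 ± 1.5 in the control, 1.01 ± 1.3 and 1.72 ± 1.43 after 16 h and 48 h of paclitaxel, 1.55 ± 1.57 and 1.36 ± 1.37 after 2 h and 16 h of celecoxib, and 2.43 ± 1.98 after the combination. No pair of neighbours in this order differed by more than the SD over cells. Detection was 58.7% of control cells (43.2% to 73.0%), 55.4% (41.5% to 68.7%) after 16 h and 73.6% (59.7% to 84.7%) after 48 h of paclitaxel, 63.5% (50.4% to 75.3%) and 65.6% (52.3% to 77.3%) after 2 h and 16 h of celecoxib, and 71.2% (57.9% to 82.2%) after the combination. All 6 intervals overlapped. In the ranking of all genes by mean E-value, HLA-B stood above 47.1% of genes in the control and above 50.6% to 64.3% in the treated conditions.

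HLA-E, a heavy chain of little variation that shows leader peptides of other class I chains to natural killer cells, was the lowest heavy chain, with a mean E-value of 0.67 ± 1.10 in the control, 0.68 ± 0.96 and 1.00 ± 1.11 after 16 h and 48 h of paclitaxel, 0.97 ± 1.18 and 0.98 ± 0.97 after 2 h and 16 h of celecoxib, and 1.29 ± 1.64 after the combination. Celecoxib 16 h had the largest share of cells with the transcript, 62.3% (49.0% to 74.4%), against 43.5% (28.9% to 58.9%) in the control and 47.5% (34.3% to 60.9%) with the combination, and these intervals overlapped. The combination had the highest mean but a median of 0.00, and its detected cells had a mean E-value of 2.72, against 1.57 in the detected cells of celecoxib 16 h. HLA-E stood above 25.8% of all genes in control cells and above 51.9% after 16 h of celecoxib. The other 4 treated conditions lay between these, from 36.7% to 44.4%.

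TAPBP, which encodes tapasin, was found in most cells at a low level. Its mean E-value was 1.00 ± 1.12 in the control, 0.80 ± 0.76 and 1.06 ± 0.94 after 16 h and 48 h of paclitaxel, 0.93 ± 0.93 and 0.92 ± 0.87 after 2 h and 16 h of celecoxib, and 1.79 ± 1.37 after the combination. It was detected in 69.6% of control cells (54.2% to 82.3%) and in 77.8% to 86.8% of treated cells, and the share with an E-value above 1 was lower, 45.7% in the control and 66.1% with the combination. ERAP1, the aminopeptidase that trims peptides to the length that fits class I, was the lowest member. Its mean E-value was 0.25 ± 0.66 in the control, 0.26 ± 0.71 and 0.46 ± 0.82 with paclitaxel, 0.28 ± 0.68 and 0.37 ± 0.74 with celecoxib and 0.65 ± 1.28 with the combination. Detection of ERAP1 was 15.2% in control cells (6.34% to 28.9%) and 36.1% (24.2% to 49.4%) after 16 h of celecoxib, with the others between. Genes entered the table when detected in over 30% of the cells of 1 or more conditions. ERAP1 met this only at 16 h of celecoxib and at 48 h of paclitaxel (30.2%). Its differences from the control, and its part in the members' medians below, therefore depend in part on that filter. The median cell of every condition was at 0 for ERAP1.

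**Figure D1:**
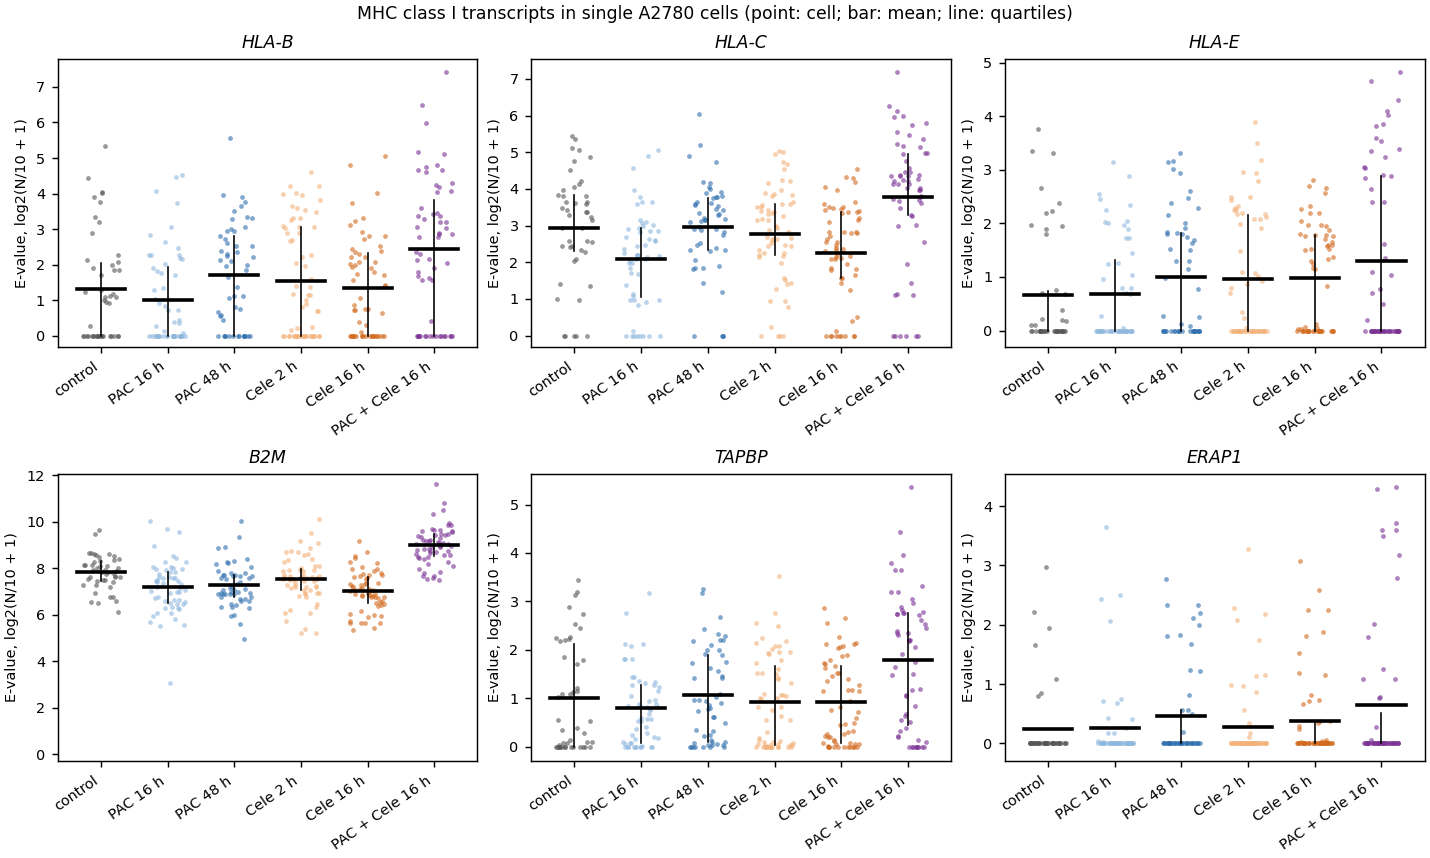
E-values, log2(N/10 + 1), of the 6 genes in each cell (points) by condition, where PAC is paclitaxel and Cele is celecoxib, with the mean over cells as a horizontal bar and the quartiles as a vertical line. B2M lay above 3 in every cell and highest with the combination (mean 9.00), while HLA-B, HLA-E, TAPBP and ERAP1 had many cells at 0.

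**Figure D2:**
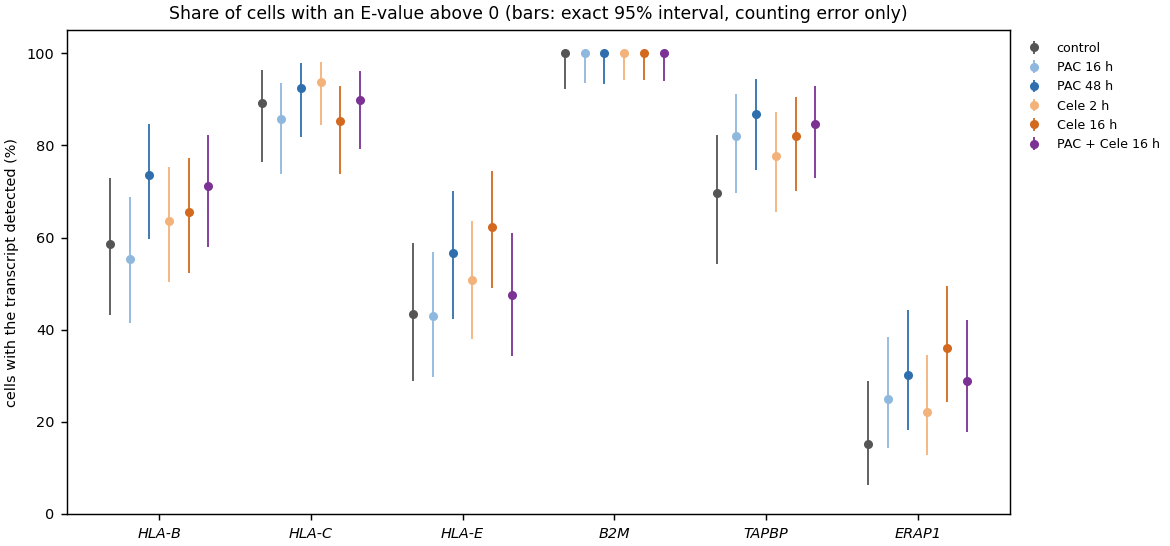
Percent of cells with an E-value above 0 for each gene and condition (points), with exact 95% intervals that cover counting error only. B2M was at 100% throughout, and the intervals of the 6 conditions overlapped for each of the other genes.

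Against control cells, differences in mean E-value past log2 of 1.5 (0.58) in either direction were counted, with the deposited values first and then with equal totals per cell. This limit is a size and not a test, and all 5 comparisons share the same control cells. The scale understates the change of low genes, and ERAP1, with a control mean of 0.25, could not pass the limit downward. The median of all 9655 genes itself differed from the control by -0.41 and -0.26 after 16 h and 48 h of paclitaxel, -0.26 and -0.48 after 2 h and 16 h of celecoxib and 0.33 after the combination, and member differences are read against these values. On the same-total scale the medians of all genes were -0.07, 0.00, -0.02, 0.03 and 0.02.

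After 16 h of paclitaxel, HLA-C (-0.84) and B2M (-0.63) were past the limit downward, and the other members differed by -0.31 (HLA-B), -0.21 (TAPBP), 0.01 (HLA-E) and 0.00 (ERAP1). Thus 0 of 6 members were past the limit upward and 2 of 6 downward, while of all genes 0.0932% were past it upward and 37.3% downward. The members' median was -0.26, above the median of all genes. Relative to that median of all genes, HLA-C (-0.43) and B2M (-0.22) were lower. The 4 members above it were those with the lowest control means, whose changes this scale understates. By the ratio of mean N in place of the mean E-value, B2M was at -0.37 and no longer past the limit, while HLA-B (-0.67) and TAPBP (-0.78) were. After scaling to the same total, no member passed, against 1.40% of all genes upward and 10.0% downward, and the members' median was 0.09. B2M then turned to 0.18 and TAPBP to 0.08, while HLA-C stayed below the control at -0.27, with 72.2% of all genes above it.

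After 48 h of paclitaxel no member passed the limit on the deposited scale, where 0.922% of all genes were past it upward and 26.6% downward. HLA-B differed by 0.40 and HLA-E by 0.33, and 2.20% and 3.31% of all genes stood above these values. HLA-C (0.04), TAPBP (0.05) and ERAP1 (0.21) differed less, and B2M was at -0.55, so that the members' median was 0.13. An index block here is a run of 96 consecutive library index numbers, a grouping that was not taken from a label. When the 31 cells from the index block of the control cells were taken alone, B2M was past the limit at -0.67, HLA-B was at 0.46 and HLA-C at 0.17. At the same total HLA-B was past the limit at 0.67, so that 1 of 6 members passed upward against 3.28% of all genes, and none downward against 5.78%. HLA-C (0.50), HLA-E (0.47), TAPBP (0.31) and ERAP1 (0.29) were above the control on that scale, B2M turned to 0.08, and the members' median was 0.39.

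At 2 h of celecoxib no member passed on the deposited scale, against 1.12% of all genes upward and 25.7% downward, and the members' median was -0.02. HLA-E was at 0.30, HLA-B at 0.23 and ERAP1 at 0.03, while HLA-C (-0.16), TAPBP (-0.08) and B2M (-0.30) were below the control. With equal totals the last 3 turned positive, to 0.25, 0.12 and 0.27. No member passed there either, with 3.31% of all genes past the limit upward and 8.12% downward, and the members' median was 0.26.

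At 16 h of celecoxib, HLA-C (-0.68) and B2M (-0.81) were past the limit downward and none upward, against 43.9% and 0.383% of all genes. HLA-E was at 0.31, with 1.28% of all genes above it, ERAP1 at 0.12, HLA-B at 0.04 and TAPBP at -0.09, and the members' median was -0.02. By mean N, HLA-E was at 14.6 against 13.4 in the control and ERAP1 at 5.49 against 3.94. HLA-B (33.0 against 38.1) and TAPBP (12.8 against 17.8) were lower than the control by mean N. Scaling changed the calls here. On the same-total scale HLA-B (0.63), HLA-E (0.77) and B2M (0.59) were past the limit upward, so that 3 of 6 members passed against 7.37% of all genes upward, and none downward against 7.95%. HLA-C turned to 0.29 and TAPBP to 0.48, ERAP1 was at 0.31, and the members' median was 0.53. The B2M value lay close to the limit.

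With the combination, 5 of 6 members were past the limit upward on the deposited scale and none downward, against 30.4% and 1.76% of all genes. B2M was at 1.17, HLA-B at 1.10, HLA-C at 0.84, TAPBP at 0.79 and HLA-E at 0.62, and ERAP1 at 0.40 did not pass. These are 2.25-, 2.15-, 1.79-, 1.73- and 1.54-fold on the scale with the pseudocount, and 1.31-fold for ERAP1. The members' median was 0.81. After scaling to the same total, none of the 6 passed in either direction, against 5.96% of all genes upward and 5.80% downward, the members' median was 0.30, and HLA-B (0.56) and B2M (0.47) stayed highest. By the median cell HLA-E differed by 0.00, and by the ratio of mean N ERAP1 was past the limit at 2.20. The combination cells fell into 2 blocks of library indices. From 1 block alone (34 cells) the same 5 genes passed, and from the other (25 cells) HLA-B (1.16), HLA-C (0.75) and B2M (1.07) passed while TAPBP (0.57) and HLA-E (0.53) lay just under the limit. The share of all genes past the limit is not given for single blocks, so these counts describe the members only.

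**Figure D3:**
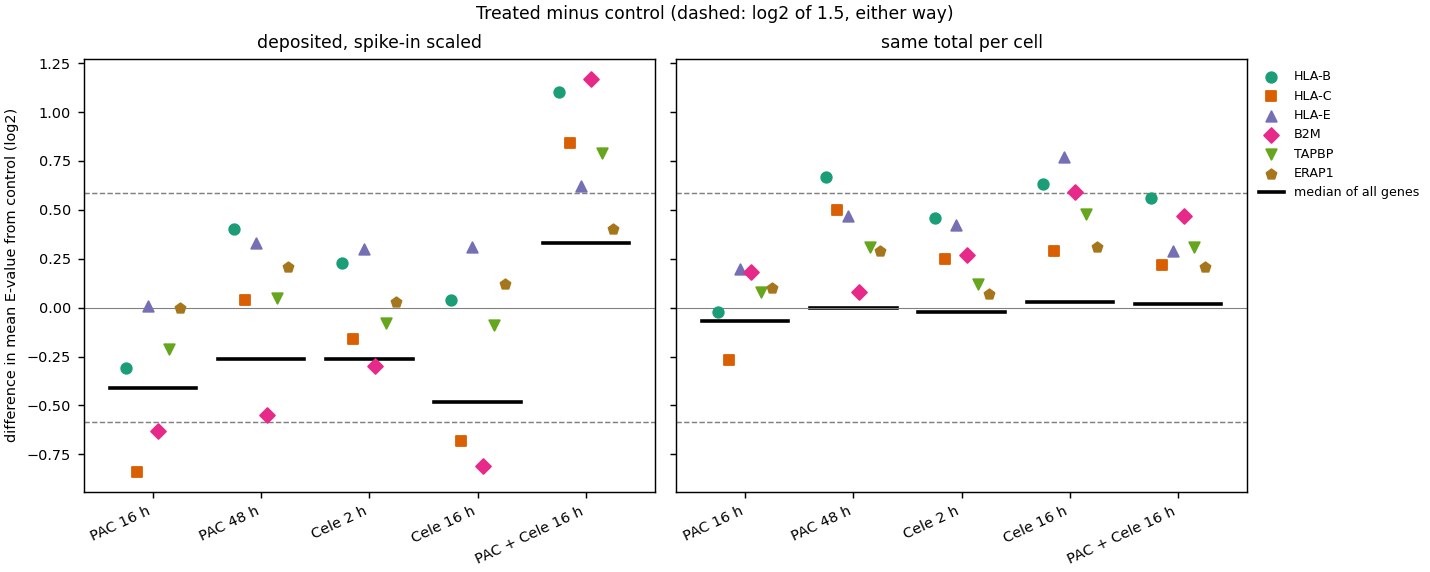
Difference in mean E-value between treated and control cells (log2) for the 6 genes on the deposited scale (left) and at the same total per cell (right), with the median of all genes as a black bar and log2 of 1.5 as dashed lines. The combination is the highest on the left (B2M 1.17), while on the right no gene of the combination passed the limit and celecoxib 16 h had 3 genes past it.

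The combination was also set against each drug alone at the same dose and time, and both comparisons share the combination cells. Against paclitaxel 16 h, 5 of 6 members were past the limit upward and none downward, while of all genes 62.5% were past it upward and 0.0311% downward. B2M was at 1.80, HLA-C at 1.68, HLA-B at 1.41, TAPBP at 0.99 and HLA-E at 0.61, with ERAP1 at 0.39. The members' median of 1.20 stood beside a median of all genes of 0.80. Between cells of the same index block (34 combination and 56 paclitaxel cells) the values were 1.87, 1.74, 1.38, 1.15, 0.67 and 0.27 in the same order. At the same total no member passed, against 9.57% of all genes upward and 1.64% downward, and HLA-B (0.58, just under the limit) and HLA-C (0.49) were highest. The members' median was then 0.26 and that of all genes 0.10.

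Against celecoxib 16 h, 4 of 6 members were past the limit upward on the deposited scale and none downward, against 66.0% and 0.0414% of all genes. B2M was at 1.98, HLA-C at 1.52, HLA-B at 1.07 and TAPBP at 0.87, while HLA-E (0.31) and ERAP1 (0.28) did not pass and 82.4% and 84.6% of all genes stood above them. The members' median was 0.97 and that of all genes 0.88. Within the index block shared by both (25 combination and 61 celecoxib cells) B2M was at 1.88, HLA-C at 1.42, HLA-B at 1.12 and TAPBP at 0.66. With equal totals all 6 members turned negative, with HLA-E lowest at -0.49 and the others between -0.17 and -0.06. No member passed there, against 5.03% of all genes upward and 4.39% downward, and the members' median of -0.11 stood beside -0.01 for all genes.

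With paclitaxel, 48 h was compared with 16 h. HLA-C (0.87) and HLA-B (0.71) were past the limit upward, 2 of 6 members, with none downward, against 7.89% and 0.352% of all genes. Only 1.86% of all genes stood above HLA-C and 4.56% above HLA-B. Both stayed past the limit at the same total, at 0.77 and 0.69, where 6.18% of all genes were past it upward and 1.18% downward. The difference in both heavy chains thus held on both scales, and from each index block of the 48 h cells alone (HLA-C 0.68 and 1.01, HLA-B 0.61 and 0.77). No 48 h cell shared an index block with the 16 h cells. HLA-E (0.32), TAPBP (0.26) and ERAP1 (0.20) did not pass, and B2M was at 0.08 as deposited but turned to -0.10 with equal totals. The members' median was 0.29 beside 0.11 for all genes, and 0.25 beside 0.07 at the same total.

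With celecoxib, no member passed the limit between 2 h and 16 h on the deposited scale, against 0.528% of all genes upward and 19.4% downward. HLA-C (-0.52) and B2M (-0.51) were lowest, HLA-B was at -0.19, and TAPBP (-0.01), HLA-E (0.01) and ERAP1 (0.08) were close to 0. On the same-total scale HLA-C (0.03), B2M (0.32), HLA-B (0.17) and TAPBP (0.36) turned positive, and no member passed, against 7.88% of all genes upward and 3.90% downward. The members' median was -0.10 beside -0.21 for all genes, and 0.28 beside 0.05 at the same total.

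A ratio within a cell does not depend on the scaling of that cell. The ratio of N of B2M to the summed N of HLA-B, HLA-C and HLA-E had a median over cells of 19.6 in the control (quartiles 10.2 and 57.6), 24.6 (12.8 and 57.3) and 14.6 (5.97 and 23.2) after 16 h and 48 h of paclitaxel, 18.1 (9.95 and 39.6) and 16.6 (10.1 and 32.5) after 2 h and 16 h of celecoxib, and 17.8 (10.7 and 53.8) after the combination. Light chain transcript thus exceeded the 3 heavy chains measured here in all conditions, with paclitaxel 16 h highest and paclitaxel 48 h lowest. The quartiles of all 6 conditions overlapped. The same order of the extremes was seen in the ratio of the mean N values, 22.5 after 16 h and 12.0 after 48 h of paclitaxel, against 16.1 in the control and 14.6 to 15.6 in the other conditions. Leaving out any 1 cell gave 21.2 to 23.9, 10.8 to 13.0 and 15.5 to 17.3 for the first 3 of these. Of the heavy chains, HLA-C exceeded HLA-B in mean N by 2.84-fold in the control, 2.24-fold at both times of paclitaxel, 2.04- and 1.76-fold after 2 h and 16 h of celecoxib and 1.79-fold after the combination. No heavy chain was detected in 3 control cells, 2 and 2 paclitaxel cells, 4 and 7 celecoxib cells and 3 combination cells.

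**Figure D4:**
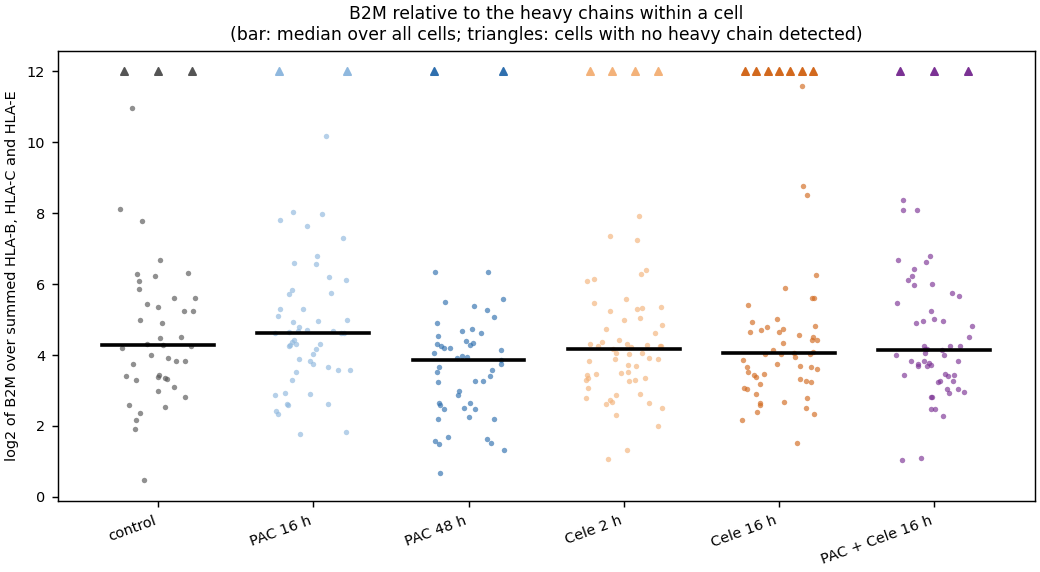
Log2 of the ratio of B2M to the sum of HLA-B, HLA-C and HLA-E (N values) in each cell, with the median over all cells as a bar and cells without a detected heavy chain as triangles at the top. Medians ran from 3.87 (paclitaxel 48 h) to 4.62 (paclitaxel 16 h), and the points of all conditions overlapped.

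Across cells of a condition, HLA-B and HLA-C varied together more than the other pairs. Pearson's r between their E-values lay between 0.45 and 0.57 in the 6 conditions (46 to 63 cells each), and between 0.33 and 0.56 at the same total per cell. As deposited, B2M and TAPBP came close at 16 h of paclitaxel (0.44, beside 0.45). HLA-C and B2M came close at 16 h of celecoxib (0.56, beside 0.57). Over all 90 combinations of a pair and a condition the median r was 0.20 (range -0.25 to 0.57), and 0.11 (-0.24 to 0.56) at the same total. Cells of a condition count as 1 sample, and B2M correlated with the log2 total of the cell (r of 0.37 to 0.69 on the deposited scale), so that part of the relations on that scale is shared with the total. HLA-B and HLA-C also share 30 of the 50-base stretches, 2.02% of those in HLA-B, and the part of divided reads in their relation was not tested. Both were detected in 27 control cells, 27 and 39 paclitaxel cells, 39 to 41 cells of the other 3 conditions, whereas HLA-B without HLA-C was seen in 0 to 4 cells of a condition and HLA-C without HLA-B in 10 to 21. All 6 genes were detected together in 1 to 7 cells of a condition.

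The 5 genes most like the mean of the members over all 338 cells, after same-total scaling and centring on the mean of each condition, were EMP3 and GLI4 (Pearson's r = 0.29) and MAGED2, LAYN and HGF (0.27), of 9649 genes ranked. These values are low, and the cells come from 6 samples. The members themselves had r between 0.40 (ERAP1) and 0.66 (HLA-C) with that mean, of which each is a part. Of the wider class I list, IRF1, an interferon-induced activator of class I promoters, had the highest value (0.23, rank 22), followed by PDIA3 (0.19, rank 116) and IRF9 (0.16, rank 267).

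The deposited annotation also gave each cell a state, assigned from expression in these same cells, so that the following is a description. At 16 h of paclitaxel, B2M had a mean E-value of 7.62 ± 1.24 in the 23 cells annotated as control-like and 6.74 ± 0.75 in the 31 annotated as suppressive, for paclitaxel 48 h 7.45 ± 0.79 (28 cells) and 7.09 ± 1.03 (25 cells), and for celecoxib 2 h 7.88 ± 0.79 (26 cells) and 7.03 ± 0.75 (33 cells). After scaling to the same total, these pairs were 7.49 and 7.44, 7.19 and 7.58, and 7.63 and 7.43. The lower B2M of suppressive cells on the deposited scale was therefore reversed at 48 h of paclitaxel by the scaling. HLA-B as deposited had means of 0.95 and 0.98, 1.72 and 1.72, and 1.86 and 1.32 in the same pairs, and was thus lower in suppressive cells with celecoxib 2 h but not with paclitaxel. HLA-E had means of 0.58 and 0.69, 1.26 and 0.71, and 1.20 and 0.79, and with equal totals 0.54 and 0.88, 1.15 and 0.85, and 1.07 and 0.91. It was lower in suppressive cells in the latter 2 pairs and higher in the first, by less than the SD over cells in each pair on both scales. All 61 cells of celecoxib 16 h were annotated as suppressive and 58 of 59 combination cells as activated, so that state and condition cannot be told apart there.

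Other genes of the pathway were described from a list of 64 genes, of which 50 were in the table. As deposited, 0 passed the limit upward and 19 downward for paclitaxel 16 h, 0 and 11 for paclitaxel 48 h, 1 and 12 for celecoxib 2 h, 0 and 21 for celecoxib 16 h, and 18 and 0 for the combination. At the same total these counts were 0 and 4, 2 and 1, 3 and 6, 7 and 2, and 4 and 2. The shares of all genes past the limit upward and downward there were 1.40% and 10.0% for paclitaxel 16 h. They were 3.28% and 5.78% for paclitaxel 48 h and 3.31% and 8.12% for celecoxib 2 h. For celecoxib 16 h they were 7.37% and 7.95%, and for the combination 5.96% and 5.80%. The median of the list on the deposited scale was -0.39, -0.26, -0.35, -0.46 and 0.38 in the same order, beside -0.41, -0.26, -0.26, -0.48 and 0.33 for all genes. The role groups below are to be read against the shares of all genes past the limit on the deposited scale, which were 37.3%, 26.6%, 25.7% and 43.9% downward with the single drugs and 30.4% upward with the combination. Their counts at the same total are to be read against the same-total shares above.

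The immunoproteasome subunit PSMB10 and the proteasome activator subunits PSME1 and PSME2 shape peptides at their source. With celecoxib, PSMB10 was the lowest gene of the list at 2 h (-1.83, and -1.33 at the same total) and PSME2 at 16 h (-1.92, and -0.55 at the same total). All 3 of this group were past the limit downward at 16 h of celecoxib, while at the same total PSME1 was past it upward at 0.72 and none downward. With the combination PSMB10 was at -0.38, and at -0.81 at the same total, the lowest of the list there. PSME1 was at 1.28 and PSME2 at 0.48 with the combination. Of 7 cytosolic and ER peptidases, 3, 2, 3 and 5 were past the limit downward with the single drugs in the order paclitaxel 16 h and 48 h and celecoxib 2 h and 16 h, and 1 upward with the combination. At the same total 1, 0, 1 and 2 were past it downward with the single drugs. Upward there, 1 was past it at 16 h of celecoxib and none with the combination. LAP3, a leucine aminopeptidase, was lowest of the list at 16 h of celecoxib at the same total (-0.98).

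Of 6 helpers of folding and loading in the endoplasmic reticulum, 5, 3, 1 and 3 were past the limit downward with the single drugs in that order, and 4 were past it upward with the combination. At the same total none was past it downward, and 1 was past it upward with the combination and 1 at 16 h of celecoxib. HSPA5, the chaperone BiP, was the highest gene of the list with the combination at 1.32 (0.65 at the same total), and PDIA3, the oxidoreductase of the peptide-loading complex, was at 1.09 (0.40). CALR, the lectin chaperone calreticulin of that complex, was at 0.12 with the combination and -0.48 at the same total, so that its direction depended on the scaling. HSPA5 was also past the limit at 16 h of celecoxib at the same total (1.16), where its deposited value was -0.19.

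Of 14 regulators of class I transcription, 7, 2, 4 and 5 were past the limit downward with the single drugs, where 37.3%, 26.6%, 25.7% and 43.9% of all genes were, and 6 upward with the combination, where 30.4% were. At the same total 3, 1, 3 and 0 were past it downward and 0, 0, 1 and 2 upward with the single drugs. With the combination 1 was past it in each direction there. NFYC, a subunit of the factor that binds CCAAT boxes, was the lowest gene of the list at 16 h of paclitaxel (-1.58, and -1.07 at the same total). CREB1, which binds X2 elements, was lowest at 48 h (-1.18, and -0.82 at the same total). RFX5, a subunit of the factor that binds the X box, was at 0.86 with the combination and 0.43 at the same total. IRF1 was at -0.40 to -0.37 with the single drugs and -0.01 with the combination.

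Of 6 interferon receptor chains and kinases, 5 were past the limit upward with the combination (30.4% of all genes), and 1, 0, 0 and 1 downward with the single drugs (37.3%, 26.6%, 25.7% and 43.9%). At the same total 1 was past it upward with the combination and 0, 1, 0 and 1 with the single drugs, and none downward. IFNGR1, the ligand-binding chain of the interferon-gamma receptor, was at 1.20 with the combination and 0.52 at 16 h of celecoxib, and at the same total at 0.64 and 1.21, the latter being the highest of the list. IFNAR2, a chain of the type I interferon receptor, was at 0.55 after 48 h of paclitaxel and at 0.87 at the same total, the highest of the list there. Among 4 class I-like molecules, FCGRT, the heavy chain of the neonatal Fc receptor and itself a partner of B2M, was the only one past the limit upward, in celecoxib 2 h cells (0.76) and in combination cells (1.32). Its same-total values were 0.92 for celecoxib 2 h, 1.20 for celecoxib 16 h and 0.77 for the combination. MICA, a stress ligand of natural killer cells, was at -0.62 and -0.68 after 2 h and 16 h of celecoxib, and within the limit at the same total (-0.32 and -0.05).

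Of 7 export and turnover genes, 1 was past the limit downward with each single drug and time, and none with the combination. BCAP31, an endoplasmic reticulum export factor, was that gene in each case (-1.22, -0.92, -1.26 and -1.39). At the same total 0, 0, 1 and 0 genes of this group were past the limit downward with the single drugs. None was past it upward in any of the 5 conditions. Of the 3 PRC2 subunits, which can repress class I genes, 1, 1, 0 and 2 were past the limit downward with the single drugs, and none at the same total. EZH2, the catalytic subunit, was at -0.86 and -0.68 with paclitaxel, -0.35 and -1.30 with celecoxib, and 0.38 with the combination. With equal totals EZH2 stayed within the limit in all 5 conditions (-0.33, -0.20, 0.08, -0.44 and -0.09).

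Between treatments, 32 of the 50 genes were past the limit upward and none downward for the combination against paclitaxel 16 h, where 62.5% of all genes were past it upward, with HSPA5 highest at 2.34. Against celecoxib 16 h the counts were 37 and none, where 66.0% of all genes were past it upward, with PSME2 highest at 2.40. On the same-total scale the counts in these 2 comparisons were 7 and 0 (9.57% and 1.64% of all genes), with IRF9 highest at 1.02, and 1 and 2 (5.03% and 4.39%), with LAP3 (0.84) highest and the peptidase HM13 (-0.88) lowest. For paclitaxel 48 h against 16 h, 6 genes were past the limit upward and none downward (7.89% and 0.352% of all genes), NFYC being highest at 1.01, and 3 and 0 at the same total (6.18% and 1.18%), where NFYC was at 0.97. For celecoxib 16 h against 2 h the counts were 0 and 6 (0.528% and 19.4% of all genes), with PSME2 lowest at -1.28, and 8 and 0 at the same total (7.88% and 3.90%), with HM13 highest at 1.19.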

How the data were processed

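Single A2780 cells were captured on a Fluidigm C1 system and copied with Smart-seq2, with spike-in RNA in every well. Per the submitters' processing notes and the methods of the study, the authors ran Trim Galore on the reads, used RSEM 1.3.0 with Bowtie2 to estimate TPM for hg38 (GENCODE version 28), and divided by the most abundant spike-in RNA of a cell. They deposited log2 values, log2(N/10 + 1), for genes detected in more than 30% of cells in 1 or more conditions. Cells with few housekeeping genes had been removed by the authors. Reads per cell are not known, and no doublet caller was run because it needs counts. Each of the 338 cells had its own library index, with 0 indices used by more than 1 cell.

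Mean E-values were compared over the whole table, with log2 of 1.5 as the limit, for 9655 genes past the 30% detection limit. N was recovered from E, and for the same-total scale each cell was scaled to the median total of all cells. Shares have exact Clopper-Pearson 95% intervals. With 1 sample per condition no test was made. The members and the gene lists were chosen with earlier results of these data known. All members were named in every comparison, and of the wider list the genes with the highest and lowest difference past the limit; other genes of that list given with values were chosen after their values were seen. Coordinates are from GENCODE version 44 on hg38. The steps were tested on simulated data. The alternatives were the same total, a ratio of mean linear values, medians, 1 instead of 10 normalized TPM as the pseudocount, leaving out the 10% of cells with fewest genes, each index block alone, no or a 50% detection limit, an E-value above 1 for detection, and the same total for correlations. The scripts ran under Python 3.11.15 with pandas 2.3.3, numpy 2.4.6, matplotlib 3.10.9 and scipy 1.17.1.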

Additional observations from a re-analysis of the deposited data

How the results depend on the processing

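Of 330 values of single genes under the alternatives, 278 were classed as unchanged and 8 as reversed. Of the others, 17 fell inside the limit and 27 moved past it. These classes do not count every change of sign. Values that changed sign at the same total include TAPBP for paclitaxel 16 h (-0.21 to 0.08) and B2M for paclitaxel 48 h (-0.55 to 0.08). HLA-E for the combination against celecoxib 16 h did so too (0.31 to -0.49). Of 165 counts and medians over the genes, 139 were classed as unchanged. The same total per cell made the most changes. There, the counts past the limit were 0 downward for paclitaxel 16 h, 1 upward for paclitaxel 48 h, 3 upward and 0 downward for celecoxib 16 h, and 0 upward for the combination against the control, paclitaxel 16 h and celecoxib 16 h. The median over the genes was 0.30, 0.26 and -0.11 in these last 3 comparisons. B2M turned to 0.18 for paclitaxel 16 h and 0.59 for celecoxib 16 h, and HLA-C to 0.29 for celecoxib 16 h. For the combination against celecoxib 16 h, HLA-B turned to -0.07, HLA-C to -0.06, B2M to -0.11 and TAPBP to -0.17. Here the change is the removal of the difference in totals.

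With medians in place of means, paclitaxel 48 h had 1 gene past the limit upward and 1 downward, celecoxib 16 h had 1 upward against the control and 1 against 2 h, and the combination had 1 downward against celecoxib 16 h, HLA-E at -1.17. With a ratio of mean linear values paclitaxel 48 h had 1 upward against the control and 4 against 16 h, with a median of 0.66. With a pseudocount of 1 the counts were 2 upward for paclitaxel 48 h, 1 upward for celecoxib 2 h, 1 upward for celecoxib 16 h, 1 downward for celecoxib 16 h against 2 h, and the median for paclitaxel 48 h against 16 h was 0.60. Without the cells with fewest genes, or from the index block of the control alone, paclitaxel 48 h had 1 downward, B2M at -0.59 and -0.67. From 1 index block alone the combination had 3 upward. No share of all genes past the limit is given for the alternatives in this paragraph. Calls under them, here and in the Results, therefore describe the members only and cannot be set against all genes. Apart from these constructions, the cause was not tested. No paired analysis was possible because each condition was 1 sample and cell numbers do not pair conditions. Low genes are limited by detection, since ERAP1 was at 0 in most cells.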
